A study of Mus musculus with 4 samples.

Results

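The tallest MafG peaks of mouse liver were the 715 peaks on chromosomes 1 to 19 at which the BLRP-MafG signal reached a normalized tag count of 200 or more while the control held fewer than 10 tags. They were selected on these tag counts, out of 68763 listed peaks, and made up 1.04% of the list. A tag is a mapped sequencing read, and the normalized tag count, called the height of a peak here, is the number of BLRP-MafG tags in its 200 bp scaled to a library of 10000000 tags. The other 66189 listed peaks on the same chromosomes served as the background.

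The series profiled livers of C57BL6/J mice by chromatin immunoprecipitation with sequencing (ChIP-seq), using an Avi-tag antibody on formaldehyde-fixed chromatin. The BLRP-MafG livers carried MafG fused to the BLRP peptide (treatment label "Ad BLRP MAFG", 2 libraries) and overexpressed it, and the control livers received the BLRP control ("Ad BLRP Control", 2 libraries). The labels used here give no age, sex or endogenous Mafg genotype. Because the fusion was overexpressed, sites that MafG does not occupy at its native level can be in the list. The deposited peak list sets 1 pool of BLRP-MafG reads against 1 pool of control reads, and it is not stated whether a pool contains both libraries of the group. No value per library was used, so no spread between animals and no test between groups is given, and peaks of 1 list are not replicates: comparisons of the tallest peaks with the other peaks below are descriptions with no test. Depth was 20406492 BLRP-MafG tags and an implied 1.72e+07 control tags, and intervals are exact 95% intervals that cover counting error only. They count every tag as independent. Each tallest peak held 409 tags or more, while its 200 bp offer 400 positions over both strands, so some tags shared a position and strand. Where such tags are not independent the intervals are too narrow, and this was not tested.

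MafG belongs to the small MAF proteins, which are basic leucine zipper factors with no transactivation domain of their own. It binds DNA as a homodimer, which is held to repress, or paired with cap'n'collar factors such as NRF2 or with BACH1, and the partner sets whether a target is activated or repressed. The letters it reads are the MAF recognition element (MARE), built of the arm TGCTGA and a TGACTCA core of the kind that AP-1 factors also bind, and, with NRF2, the antioxidant response element with the core TGACNNNGC. In liver these elements are known from genes of antioxidant defence, haem breakdown and drug conjugation, and MafG has also been placed in the control of bile acid synthesis.

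No genome sequence was used, so letters can be shown only where a tallest peak met a RefSeq promoter window (250 bases before to 50 after a gene start, assembly GRCm38.p6, the same as mm10) or a RefSeq miRNA hairpin. With an overlap of at least 100 bp, 2 promoter windows met such a peak, and both are shown because they are the promoter windows under the tallest peaks. The first, at chr17:27839837-27840136 on the plus strand, belongs to Snrpc, a protein of the U1 splicing particle, and shares 190 bp with the peak at chr17:27839826-27840026 (height 387.6). The second, at chr16:78236743-78237042 on the plus strand, belongs to Gm31613, a long noncoding RNA gene, and holds the whole peak at chr16:78236831-78237031 (height 474.8). The third run is the hairpin of Mir106b, at chr5:138165737-138165818 on the minus strand inside the replication helicase gene Mcm7, and it lies wholly within the peak at chr5:138165698-138165898 (height 255.3, with 0 control tags). Capitals mark matches, on either strand, to the arm, to the AP-1-like core or to the antioxidant core named above. All run 5′ to 3′.
Snrpc: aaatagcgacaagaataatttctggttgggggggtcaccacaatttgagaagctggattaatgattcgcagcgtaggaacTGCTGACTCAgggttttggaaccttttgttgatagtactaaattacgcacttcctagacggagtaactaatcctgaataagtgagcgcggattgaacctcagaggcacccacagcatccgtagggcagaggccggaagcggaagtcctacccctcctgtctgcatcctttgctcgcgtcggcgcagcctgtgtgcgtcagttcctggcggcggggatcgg
Gm31613: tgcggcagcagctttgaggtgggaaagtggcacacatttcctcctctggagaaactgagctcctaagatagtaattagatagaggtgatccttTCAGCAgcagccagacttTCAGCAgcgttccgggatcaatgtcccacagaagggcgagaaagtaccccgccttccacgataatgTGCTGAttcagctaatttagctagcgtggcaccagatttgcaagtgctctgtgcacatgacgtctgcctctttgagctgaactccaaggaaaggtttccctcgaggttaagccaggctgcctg
Mir106b: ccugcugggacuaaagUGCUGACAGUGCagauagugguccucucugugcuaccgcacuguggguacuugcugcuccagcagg

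In the Snrpc window the arm and the TGACTCA core overlapped in the single run TGCTGACTCA at bases 81 to 90, and the TGACTCA stood 3 bp from the midpoint of the peak. Of 31396 promoter windows searched, 43 (0.137%) held TGCTGACTCA on either strand, 5.26% held TGACTCA, 19.4% held TGCTGA and 12.5% held TGACNNNGC. The run TGCTGACTCA was searched because it had been read in the Snrpc window, so its share does not measure how unlikely that match was. In the Gm31613 window TGCTGA occurred 3 times, with the nearest 8 bp from the midpoint of the peak and the others 74 and 92 bp away, both on the opposite strand. The Mir106b hairpin held TGCTGA at bases 17 to 22 and, overlapping it, TGACNNNGC at bases 20 to 28, which stood 2 and 3 bp from the midpoint of the peak. Of 919 miRNA hairpins searched in the same way, 7.83% held TGCTGA and 3.81% held TGACNNNGC; a hairpin is shorter than a promoter window, so the shares of hairpins and windows are not comparable. Mir93 and Mir25, which share the Mcm7 host with Mir106b, lay 188 and 394 bp from the midpoint of this peak. Another hairpin, Gm51293, lay within a peak of height 415.1 next to the homeodomain-only gene Hopx and held none of the searched letters. A match is a run of letters and not a measured site.

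Further down in height, promoter windows under peaks of 50 to below 200 were more numerous, at 38. Of these, 26 (68.4%) held TGCTGA, 23 (60.5%) held TGACNNNGC, 14 (36.8%) held TGACTCA and 5 (13.2%) held the run TGCTGACTCA. Windows with no peak held the same letters in 18.9%, 11.9%, 5.17% and 0.0995% of cases, in the same order. The 1979 windows under peaks below 20 held them in 22.9%, 17.5%, 4.90% and 0.253%, so TGACTCA was no more frequent there than in windows with no peak. The 225 windows under peaks of 20 to 50 held them in 46.7%, 29.3%, 13.8% and 1.33%. With 2 windows under the tallest peaks, no share is given for them.

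The values that chose the peaks are given here as a description. Heights of the 715 peaks ran from 200.4 to 1438 with a median of 272.5 and quartiles of 226.9 and 348.15, while the other peaks had a median of 12.3. A height of 300 or more was reached by 277 peaks, 400 by 120, 500 by 45, 600 by 25 and 800 by 5. A single peak exceeded 1000. Together the 715 peaks held 452145 of the 3369016 tags in listed autosomal peaks, which is 13.4% of the tags in 1.07% of those peaks. The control held a median of 2 tags at the tallest peaks (quartiles 1 and 4, highest 9) and 1 tag at the others, and 0 control tags were found at 130 tallest peaks (18.2%) and at 29245 others (44.2%).

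The ratio of BLRP-MafG to control, after scaling for depth, was lowest at 43.4 and the lowest of its lower limits was 21.8. For 505 of the 715 peaks (70.6%) the lower limit exceeded 50. Most of the width of these intervals comes from the control, which rests on single tags, so the order of the peaks by ratio is poorly known. A fold over the surrounding 10 kb is also deposited by the authors. Its median was 229 at the tallest peaks and 15.5 at the others. The extremes among the tallest peaks were 15.07 inside Eif2ak4, a stress kinase that phosphorylates a translation initiation factor, and 1003 at a peak 259712 bp from Dmac1.

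The threshold cut through a continuous range of heights. Just inside it stood peaks nearest to Fndc3b (200.9) and to Tmtc2, Fhod3, Fcgbp and Car12 (200.4 each). Just outside stood peaks nearest to Toporsl (199.9) and to Actr3, Hk2, Cmtm8 and 1810013L24Rik (199 each). Neighbours across the threshold thus differed by 1 tag (409 and 408), and nothing separated them but the rule.

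Of 736 listed peaks with a height of 200 or more, 21 were left out. Of these, 15 lay on chromosomes 1 to 19 with 10 or more control tags, 1 on chromosome X, 3 on chromosome Y and 2 on unplaced sequence. The highest of all listed peaks was among them, at chr11:3133503-3133703 nearest to the centrosome gene Sfi1, with a height of 2109 and 60 control tags. A peak on unplaced sequence reached 2044 with 62 control tags. By contrast the left-out peaks near Hdc (691, histidine decarboxylase) and Nfic (555.2, a nuclear factor I gene) had 11 control tags each, close to the limit. The limit is a count of control tags and not a ratio. At the peaks just named the deposited fold over control was 60.5, 56.75, 108 and 86.9, in that order. Over all 21 it ran from 12.7 to 1213, and its lowest value among the tallest peaks was 43.4.

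The tallest peak of all lay inside Aff3, a nuclear protein gene of the AF4/FMR2 family, at chr1:38549365-38549565. Its height was 1438 (interval 1386 to 1491) with 2 control tags. It was 77779 bp from the start of Aff3 and far above the next peaks. Atxn1, which encodes the chromatin-associated protein ataxin 1, held a peak of 905.6 (865 to 948) at chr13:45751313-45751513 with 3 control tags. An equal height of 905.6, with 3 control tags, was found at chr16:12772627-12772827, inside a long noncoding RNA gene and 11244 bp from LOC108167340. Intervals of the second to the fifth peak overlap, so their order is not resolved by the tag counts.

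The next peaks by height again lay mostly within gene bodies. Esrrb, the gene of an orphan nuclear receptor related to the estrogen receptor, held a peak of 881.1 (841 to 923) with 4 control tags, 66587 bp from its start. Ttn, the gene of the giant sarcomere protein titin, held one of 853.2 (814 to 894) with 1 control tag, 4733 bp inside its 3′ end. A peak of 788.5 (750 to 828), with 3 control tags, lay 26422 bp downstream of the kelch-domain gene Klhdc7a and inside a long noncoding RNA gene. Vipr2, a receptor for vasoactive intestinal peptide, held a peak of 730.2 (694 to 768) with 5 control tags, 17234 bp from its start.

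Of the 15 highest peaks, 2 had 0 control tags, beside 130 (18.2%) of all 715. The first, at 727.7 (691 to 766), lay 1140 bp outside Got1l1, a relative of the aspartate aminotransferases. With the control set to a floor of 3 tags its ratio was 418, and the exact lower limit was 339. The second, at 704.7 (669 to 742), lay 1900 bp outside the pentraxin gene Ptx4, where the same floor gave 404 and a lower limit of 328.

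The remaining 6 of the 15 ranged from 694.9 to 664.5, and their intervals all overlap. Inside Tln2, a talin that links integrins to actin, a peak of 694.9 had 1 control tag. Rhoh, an atypical small GTPase of blood cells, held a peak of 691.9 with 6 control tags. Spock1, a secreted proteoglycan gene, held one of 675.3 with 2 control tags, 339743 bp from its start. Sec23a, a component of the COPII coat that carries cargo out of the endoplasmic reticulum, held one of 670.4 with 7 control tags. The zinc finger gene Zfp9 held one of 666.5 with 4 control tags, and a peak of 664.5 with 5 control tags lay 68721 bp from Pudp, a phosphatase gene. In all, 10 of the 15 lay inside a protein-coding gene, and Zfp9 alone among them was within 1 kb of a gene start or, where the strand is unknown, an end.

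**Figure D1:**
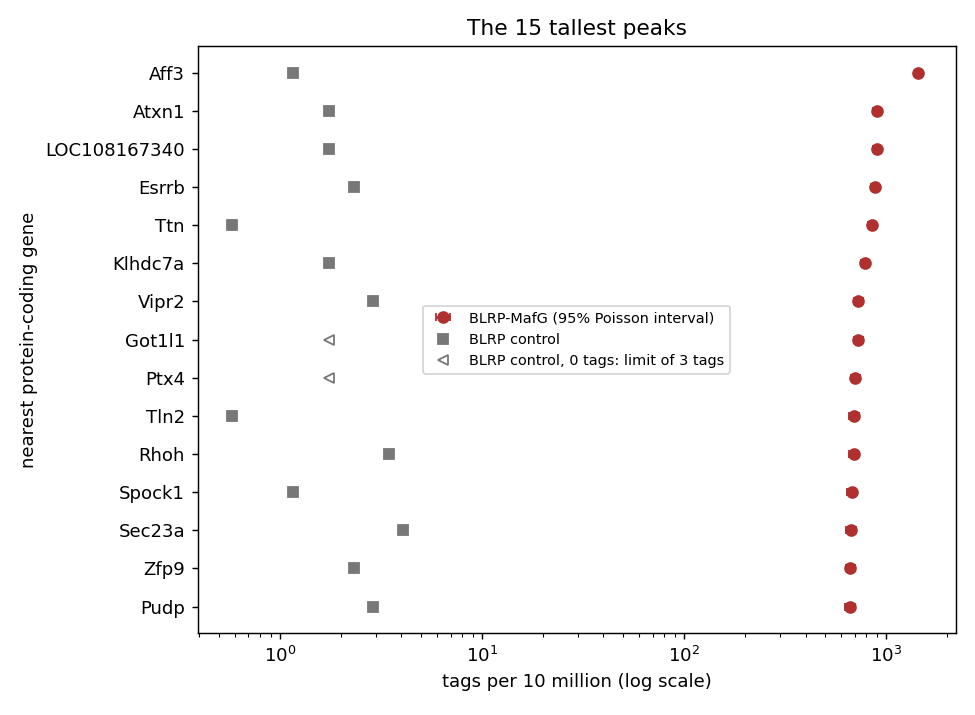
Tags per 10000000 (log axis) at the 15 tallest peaks, named by the nearest protein-coding gene; circles are BLRP-MafG with exact 95% Poisson intervals (most are smaller than the symbol), squares the control and open triangles the limit of 3 tags where the control had 0. BLRP-MafG values lie between 664.5 and 1438, and control values below 5.

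The tallest peaks stood mainly away from gene starts. Within 1 kb of the start of a protein-coding gene were 9 of 715 (1.26%), against 4669 of the 66189 other peaks (7.05%); where the reference did not give a gene's strand, the nearer end was used as its start. Counting only starts known by strand, the numbers were 8 (1.12%), against 3669 (5.54%). Within 10 kb the shares were 22.4%, against 25.8%, and within 50 kb they were 59.4%, against 59.1%. The median distance to the nearest start was 34542 bp for the tallest peaks and 33175 bp for the others, so the shares differed near starts while the medians lay close.

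Gene bodies held 379 of the tallest peaks (53.0%), against 32224 of the others (48.7%). Of the 715, 277 (38.7%) lay inside a gene and more than 10 kb from any start, against 33.2% of the others. The genes around the peaks were of like length, with a median of 102 kb for the tallest peaks and 103 kb for the others. Exons and introns were not separated. Outside genes, 77 peaks were within 10 kb of the nearest gene, 116 were 10 to 50 kb away and 143 (20%) were farther than 50 kb, against 22.9% of the others. Of the 336 outside peaks, 148 were upstream (20.7% of the 715) and 113 downstream (15.8%) of the nearest gene, against 22.1% and 17.6% of the other peaks. For 75 (10.5%) the strand was not given, against 11.6%. A long noncoding RNA gene held 53 of them (7.41% of the 715), against 7.77% of the others.

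Some of the tallest peaks were in wide intergenic stretches, with 11 (1.54%) more than 500 kb from any protein-coding gene, against 3.31% of the other peaks. A peak of 597.4 with 1 control tag, rank 26 by height, lay 1228386 bp from Gata3, which encodes a GATA transcription factor. A peak of 228.8 lay 1256439 bp from Slc10a2. At such distances the nearest gene is a label of position only, and a peak was given to a gene by distance throughout.

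By height class the share near starts did not change evenly. With fewer than 10 control tags throughout, it was 8.19% of peaks below 10, 8.74% at 10 to 20, 4.38% at 20 to 50, 2.43% at 50 to 100 and 2.59% at 100 to 200, and then 1.14% at 200 to 300 and 1.44% at 300 or more. The last pair of classes rests on 5 and 4 peaks. Peaks of 50 to 200 already had a low share, so most of the drop lay below 100 and not at the threshold of 200. The share inside genes ran between 47.4% and 49.0% in the classes below 100, and was 52.7%, 52.3% and 54.2% in the classes above.

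**Figure D2:**
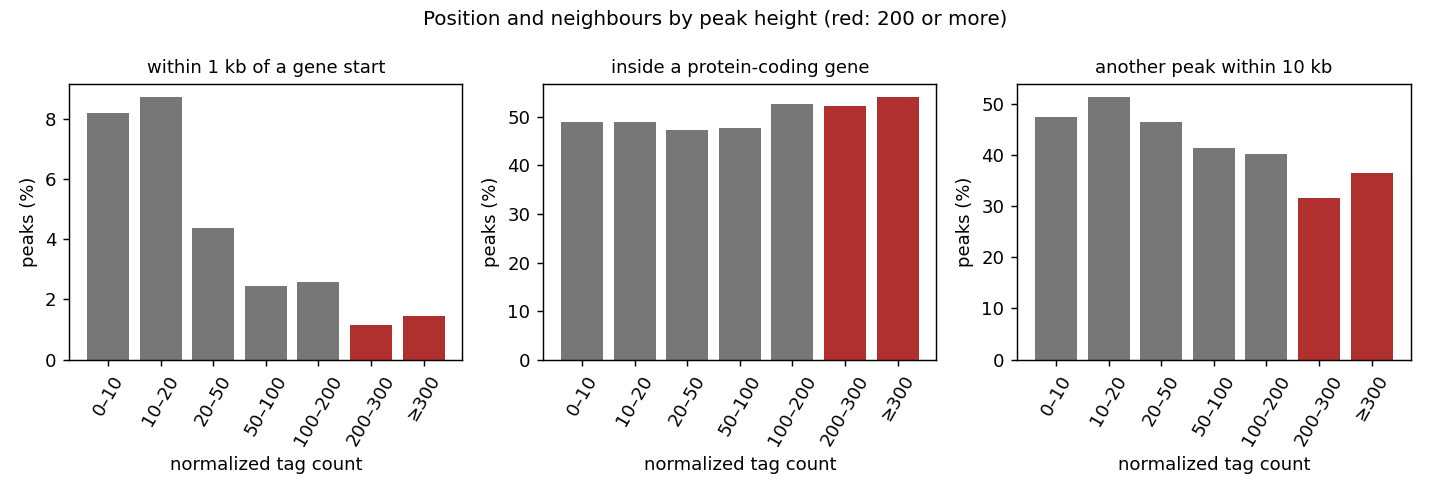
Share of peaks (%) within 1 kb of a protein-coding gene start, inside a protein-coding gene and with another listed peak within 10 kb, by class of normalized tag count; red bars are the tallest peaks and grey bars lower ones, all with fewer than 10 control tags. The share near starts is 8.19% in the lowest class and 1.44% in the highest.

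The 9 peaks near starts were led by Zfp9 (666.5), whose midpoint was 326 bp from an end of the gene, with the strand unknown. The Snrpc peak shown above (387.6, interval 361 to 416, 3 control tags) was 161 bp upstream of the start site in its promoter window and 102 bp from the gene as the reference table gives it. The peak of Mrc1, the mannose receptor of macrophages and liver sinusoidal endothelium, was 786 bp inside its start (380.3, interval 354 to 408, 1 control tag). A peak of 333.7 lay 639 bp from the start of Arhgef4, an exchange factor for small GTPases.

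The other 5 were lower and of mixed function. The peak of Magi2, a membrane scaffold gene, had a height of 270.5 and lay 850 bp from a start within the long gene, 688981 bp from its outer end. Values were 268.5 at 1110008P14Rik and 264.1 at Ldb3, a muscle Z-disc gene; the Ldb3 peak had 9 control tags, the most the rule allows. Arsj, a sulfatase gene, had a peak of 218.1 at 539 bp, and Samd11 one of 201.4 at 236 bp. Both had 1 control tag.

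The 715 peaks had 669 different nearest protein-coding genes. A gene was nearest to 2 of them in 40 cases and to 3 in 3 cases, which are named here after their values were seen. Nfia, a nuclear factor I transcription factor gene, had 2 peaks inside it (332.7 and 325.9) and another 231060 bp upstream (461.6). Matn1, a cartilage matrix protein gene, had 3 downstream, between 250283 and 400994 bp away (246, 278.8 and 457.7). Zfp516, a zinc finger gene, was the other. By chromosome, the tallest peaks made up between 0.574% of listed peaks on chromosome 14 (17 peaks) and 1.89% on chromosome 17 (50 peaks).

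Among 17 lists of genes for MafG's known partners and for liver functions, 337 genes in all, 18 of the tallest peaks (2.52%) had a listed gene as the nearest, against 1413 of the other peaks (2.13%). The 18 peaks belonged to 16 genes. These lists were drawn up with earlier results of these data known, and the counts carry no test.

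For bile acids, the subject of the series title, 0 of the tallest peaks were nearest to any of the 21 synthesis genes or the 13 regulators, against 81 (0.122%) and 82 (0.124%) of the other peaks. Since 1 peak is 0.140% of the 715, a count of 0 is near these shares. From the 16 bile acid and biliary lipid transporters the only gene was Slc10a2, the ileal bile acid transporter, at the distance of 1256439 bp given above. For proteasome, fatty acid oxidation, cholesterol, secreted liver protein and acute phase lists the count was also 0 of the tallest, against 0.131%, 0.0544%, 0.0816%, 0.116% and 0.0483% of the other peaks. Each of these shares is below that of 1 peak in 715, so the counts of 0 do not set these lists apart. The counts cover listed genes only. Eci2 and Acox3, also genes of fatty acid oxidation but not on its list, were nearest to tallest peaks. Heights were 490 and 220.5 near Eci2 and 618.9 inside Acox3.

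The list of small MAF factors, their partners and Keap1 had 1 of the tallest peaks (0.140%, against 0.0891% of the others), and the NRF2 antioxidant and conjugation list had 2 (0.280%, against 0.198%), both near the shares of the other peaks. Hmox1, the enzyme that opens the haem ring and a textbook target of NRF2 and BACH1, had 2 peaks outside the gene: 316.1 (interval 292 to 341, 1 control tag) at 9635 bp and 243.5 (223 to 266, 4 control tags) at 3915 bp. It was the only gene of 39 on the antioxidant and conjugation list. Mafg itself held a peak of 213.2 (194 to 234, 2 control tags), with lower peaks of 64.7 and 89.7 at 1130 and 2763 bp from it. The introduced construct carries Mafg sequence, and the part of construct reads in these peaks was not tested. Slc48a1, a haem transporter, held a peak of 280.8 (258 to 305, 3 control tags), the only one of the haem and iron list (0.140%, against 0.0801%). Hmox1, also a haem gene, was not on that list, so its 2 peaks are not in this share.

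Core clock genes had 4 of the tallest peaks, all inside the gene, in 4 of the 16 listed genes (0.559% of the tallest peaks, against 0.154% of the others). Arntl, which encodes BMAL1, held a peak of 417.5 (390 to 447) with 0 control tags, and the floor of 3 gave it a ratio of 240 (lower limit 194). Clock, its heterodimer partner, held a peak of 263.6 with 8 control tags. Rora, a nuclear receptor that activates Arntl, held one of 248.5 with 7, and Per2, a repressor of the BMAL1 and CLOCK pair, held one of 220.5 with 4. The ratios of these last 3 were 56.7, 61.1 and 94.9, with lower limits of 28.6, 29.4 and 36.8. With every tag counted as independent, the lower 3 heights have intervals that overlap one another and lie wholly below that of Arntl.

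Genes of fatty acid and triglyceride synthesis also had 4 of the tallest peaks (0.559%, against 0.159% of the others), in 3 of 16 genes. The highest, 403.8 (377 to 432, 2 control tags), lay 11544 bp from Gpam, the mitochondrial acyltransferase that starts glycerolipid synthesis. A peak of 270 (3 control tags) lay inside Elovl6, a fatty acid elongase. Lpin1, a phosphatidate phosphatase, had 1 peak inside it (219.5, 1 control tag) and 1 at 194905 bp (248.5, 8 control tags). The urea cycle and amino acid list had 2 of the tallest peaks (0.280%, against 0.110% of the others). These were Sds, serine dehydratase, with 402.3 (375 to 431, 5 control tags) inside the gene, and Arg1, the arginase of the urea cycle, with 284.7 (0 control tags) at 105308 bp.

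Foxo1, a forkhead factor of fasting metabolism, had a peak of 249.4 (3 control tags) at 204599 bp, the only one of the gluconeogenesis and glycogen list (0.140%, against 0.144%). Onecut2, a hepatic homeodomain factor, held one of 236.7 (1 control tag), the only one of the liver transcription factor list (0.140%, against 0.245%). Counting instead any listed gene within 10 kb of the midpoint gave 13 peaks (1.82%), and within 50 kb 27 peaks (3.78%). The shares of the other peaks by these counts were not taken, so no comparison is made with them.

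At least 1 other listed peak was found within 10 kb of 239 of them (33.4%), against 47.8% of the other peaks. The mean number of neighbours was 0.404, against 0.665. At least 2 neighbours were found for 47 (6.57%), against 14.9%, and 4 or more for 0 of 715, against 358 (0.541%) of the others. By height class, and with fewer than 10 control tags, the share with a neighbour was 47.3% below 10, 51.3% at 10 to 20, 46.4% at 20 to 50, 41.4% at 50 to 100, 40.2% at 100 to 200, 31.5% at 200 to 300 and 36.5% at 300 or more. It was thus already lower in the classes just below the threshold, and it was not lowest in the tallest class. Counted from each tallest peak, the 289 neighbours had a median height of 19.6 and a median of 6.27% of the height of the tall peak. Because the tallest peaks were chosen by height, this percentage is description only. Of the neighbours, 5 were taller than the peak they were counted from, and each was itself one of the tallest peaks.

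Most of the difference lay within 5 kb, and a smaller one at 5 to 10 kb. Per 100 kb searched, peaks stood around the tallest peaks at 0.699 between the caller's minimum spacing of 400 bp and 1 kb and at 0.909 between 1 and 5 kb, against 3.74 and 3.11 around the others. At 5 to 10 kb the values were 3.23, against 3.71. At 10 to 20 kb they were 4.02, against 3.67, and at 20 to 50 kb they were 3.98, against 3.54. The peak caller kept a peak only if it exceeded the surrounding 10 kb by 4-fold, per the file headers, and tags of a tall peak count towards the surroundings of anything within 5 kb. Neighbours within 5 kb of a tallest peak had a median height of 68.6 and none was below 27.4 (58 neighbours), while those at 5 to 10 kb had a median of 13.7 and a lowest value of 4.41 (231 neighbours). Around the other peaks both medians were 12.3. The part of this filter in the count of neighbours was not tested.

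**Figure D3:**
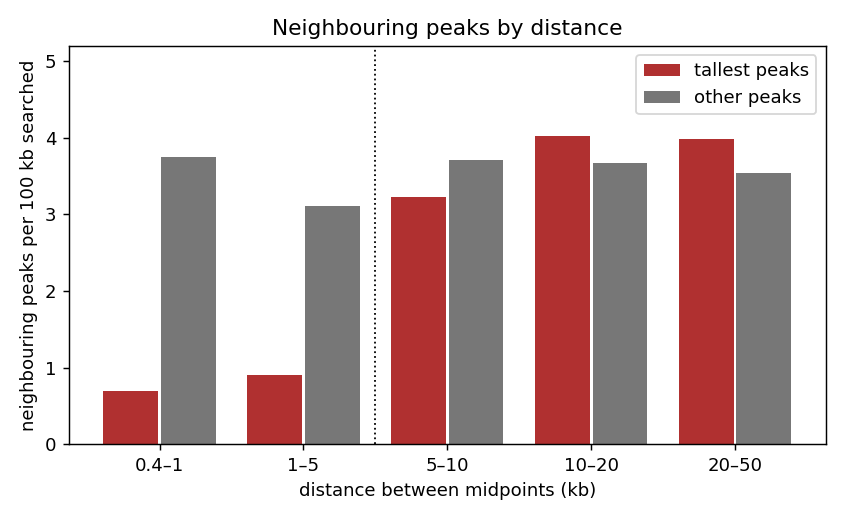
Listed peaks per 100 kb searched around the tallest peaks (red) and around the other peaks (grey), by distance between midpoints in kb; the dotted line at 5 kb marks the reach of the caller's filter on the surrounding 10 kb. Red bars are at 0.699 and 0.909 inside the line and between 3.23 and 4.02 outside it.

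The nearest neighbour of all stood 473 bp from a peak of 330.3 outside Psd2 and had a height of 39.7. At Snx18, a sorting nexin gene, a peak of 104.4 with 0 control tags stood 491 bp from one of the tallest peaks (322.4). At Mgat5, a Golgi glycosyltransferase gene, one of 80.9 stood 541 bp from a peak of 243.1. These 2 neighbours had 32.4% and 33.3% of the height of their tall peaks.

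The count of neighbours reached its highest value, 3, at 3 peaks, among them the peak of 316.1 near Hmox1 and a peak inside Rbm47. Inside Rbm47, an RNA-binding protein gene, the peak of 246 had neighbours of 12.7, 12.3 and 11.8, all more than 5 kb away. The much taller peaks at Got1l1 and Zfp9 had 2 neighbours each, none above 26.

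Pairs of tallest peaks within 10 kb of each other numbered 5. Near Eci2, an enoyl-CoA isomerase of fatty acid oxidation, peaks of 490 (0 control tags) and 220.5 (1 control tag) stood 3927 bp apart, the lower one 64249 bp from the gene. Inside Abtb2, peaks of 325.4 (8 control tags) and 338.1 (0 control tags) stood 3006 bp apart. The closest pair was near Prok1, the gene of a secreted prokineticin, with 315.6 and 289.1 at 2087 bp. Near Tbc1d22a, a gene with a Rab GTPase-activating domain, peaks of 289.6 and 276.4 stood 3796 bp apart, the lower one 291647 bp from the gene. The Hmox1 pair, at chr8:75083883-75084083 and chr8:75089603-75089803, was 5720 bp apart. It was the only one of the 5 with further listed peaks on both sides within 10 kb of either peak, with heights of 29.4 and 13.7 on the far side of the first peak and 6.86 inside Hmox1, 8000 bp from the second. In 3 of the 5 pairs (Abtb2, Prok1 and Tbc1d22a) the lower peak had more than 90% of the height of the taller one. Both peaks of each pair were chosen by height, so this likeness is description only.

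**Figure D4:**
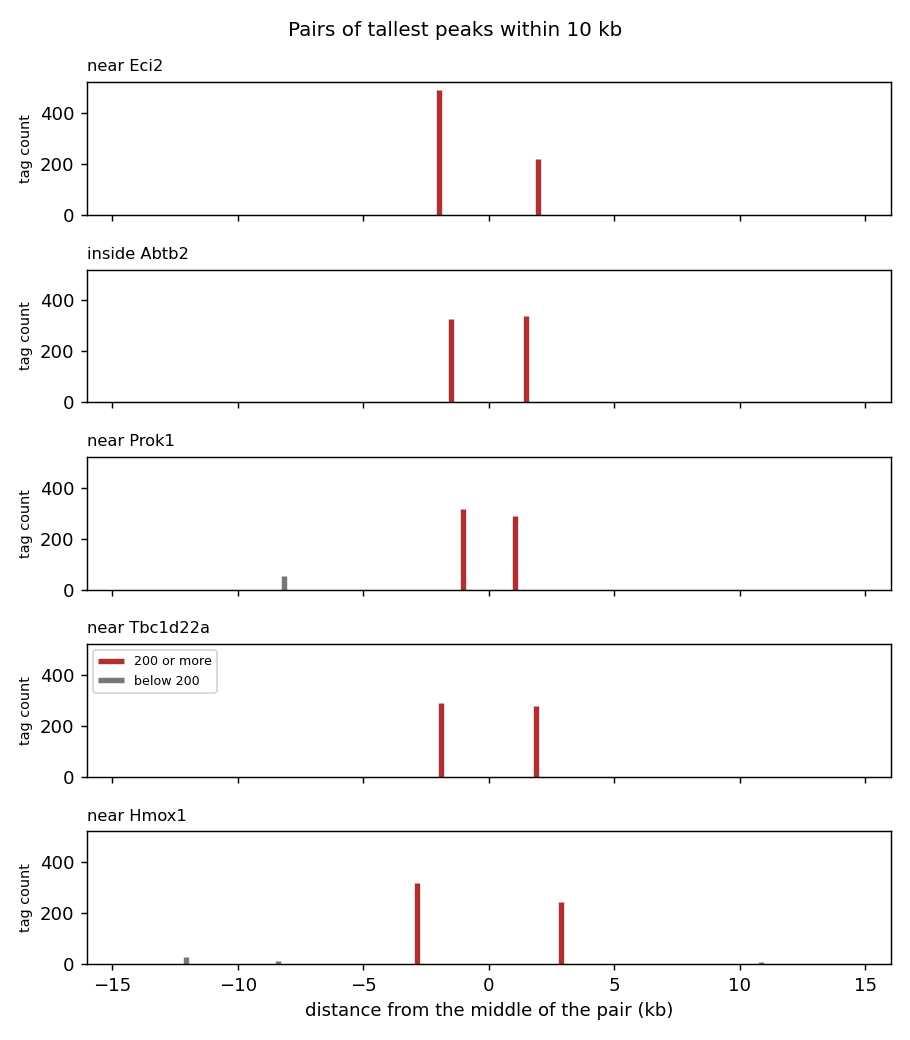
Height (normalized tag count) of listed peaks against distance in kb from the middle of each of the 5 pairs of tallest peaks; red bars are peaks of 200 or more and grey bars lower ones. The pair near Hmox1 (316.1 and 243.5) has 3 low peaks in the span, and the one near Eci2 is the most unequal (490 and 220.5).

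The deposited score of a peak, which the header ties to a limit of 1 tag per position, increased less than in proportion to the tags. Scores of the 715 ran from 166 to 389, the highest at Ttn. In a peak of 200 bp a limit of 1 tag per position and strand would allow 400. Tags per unit of score had a median of 2.28 at the tallest peaks, from 1.76 to 8.24 at Aff3, against a median of 1.12 at the others. Across the 715 peaks height and score, which share the same tags, had a Spearman correlation of 0.90. Taking the 715 autosomal peaks of highest score in place of height gave 654 (91.5%) of the same peaks. Of those 715 peaks by score, 1.40% were within 1 kb of a start, 53.7% inside a gene and 34.0% had a neighbour within 10 kb.

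**Figure D5:**
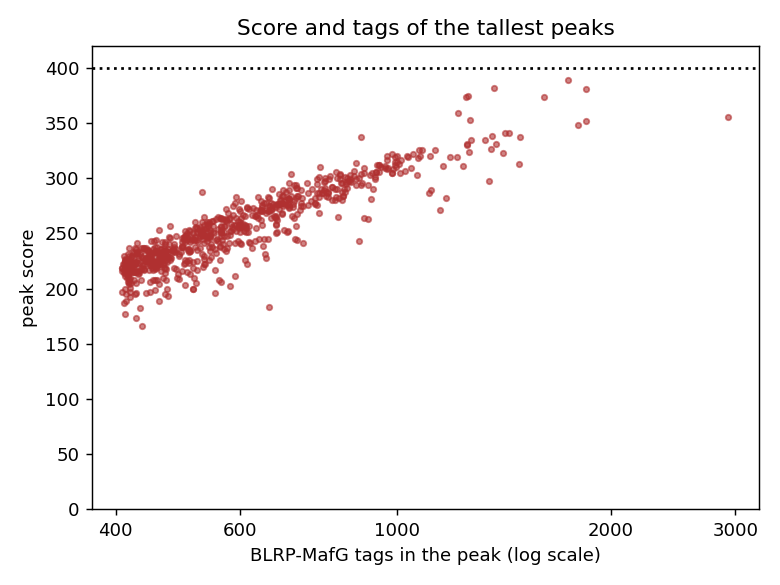
Deposited peak score against the number of BLRP-MafG tags (log axis) for each of the 715 tallest peaks; the dotted line marks 400, the positions on both strands of a 200 bp peak. Scores lie between 166 and 389, and Aff3, farthest right with 2934 tags, has a score of 356.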

How the data were processed

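The series has ChIP-seq libraries of 2 BLRP-MafG and 2 BLRP control livers, and 1 deposited peak list. Whether the list draws on both libraries of each group is not stated. Per the submitters' processing notes, Bowtie2, HOMER and build mm10 were used; their versions were not given in the sources used here. Peaks of 200 bp, at least 400 bp apart, were called, per the file headers, with HOMER findPeaks at 10-fold over control (Poisson p of 1.00e-06) and 4-fold over the surrounding 10 kb. The BLRP-MafG signal was scaled by the authors to 10000000 tags, and the deposited control signal is unscaled, with 0.5 for 0 tags. The deposited score, the deposited fold ratios (over control, over surroundings and clonal) and the deposited p-values are the peak caller's; the p-values weigh tags, not animals, and were not used.

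Heights multiplied back by the 20406492 tags came within 0.1 of a whole tag and gave exact Poisson intervals of heights and exact binomial intervals of ratios, at 95%; ratios to 0 control tags used a floor of 3. Genes were taken from RefSeq (GRCm38.p6): 79.6% of 20665 autosomal protein-coding genes had a strand from the promoter table, and the nearer end stood in for the start of the rest. Promoter windows and hairpins of chromosome 18 were not used. Distances run from peak midpoints. All 337 listed genes were found by symbol. Functions were tested on simulated data. Python 3.11.15, pandas 2.3.3, NumPy 2.4.6, SciPy 1.17.1 and matplotlib 3.10.9 were used.

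The peaks and the gene lists were chosen with earlier results of these data known. Named were the 15 highest peaks, those within 1 kb of a start, the 3 highest per gene list, the 5 with most neighbours, all pairs within 10 kb, the 5 on each side of the threshold and the highest left out. Other named peaks (extremes, closest neighbours, those under a promoter window or hairpin, genes nearest to several, and Acox3) were chosen after their values were seen. Alternatives were other thresholds, windows, gene sets and the score. A few peaks that the naming rule covers are not reported here.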

Additional observations from a re-analysis of the deposited data

How the results depend on the processing

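The number of tallest peaks followed the rule: it was 1222 at a height of 150 or more, 277 at 300 or more and 386 with fewer than 3 control tags. The share within 1 kb of a gene start stayed between 1.12% and 2.24% under the other thresholds, with the nearer gene end, with genes of known strand only and by score (these last 2 chosen after seeing the data). It was 10.8% within 5 kb, against 16.7% of the other peaks, and 5.03% with all genes of the reference table, noncoding ones included, against 10.7%. The share inside genes was 61.4% with all genes, against 57.5%. The share with a neighbour was 7.55% within 5 kb, against 25.7%, then 69.1% within 20 kb, against 71.7%, and 25.2% with neighbours of 20-fold or more over control, against 33.8%. Pairs numbered 13 at a height of 150 or more, 1 at 300 or more, 1 with fewer than 3 control tags and 8 within 20 kb. What part of these moves comes from the windows, thresholds and gene sets themselves was not tested. No paired analysis was possible because the list holds no value per library; for the same reason no replicate could be left out. Depth limits the ratios through the control, which held a median of 2 tags at these peaks. Weaker binding below the caller's limits is not in the list.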
